A study of Homo sapiens with 28 samples.

Results

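The set described here is 31 genes of cholesterol synthesis, uptake and efflux, of 35488 genes in the deposited tables. The members were listed by symbol and matched to the gene names of the tables, with the row of the highest mean to be taken where a symbol repeats, and all 31 were found and tested. They comprise 20 enzymes of synthesis, 5 genes of the control of SREBP transcription factors, 4 of cholesterol uptake and transport, and 2 of efflux. The cells were SK-N-MC, an established human line of Ewing sarcoma, a tumour driven by the fused transcription factor EWS-FLI1. Each culture carried 1 of 4 doxycycline-inducible short hairpin RNAs: shFLI1 against FLI1, which also takes in the FLI1 part of the fusion, shCHD4#1 or shCHD4#2 against CHD4, an ATPase of the nucleosome remodelling and deacetylase complex, or the control shScramble. All groups, controls included, received 100 ng/ml doxycycline, for 24 or 48 h. At each time there were 3 shFLI1, 3 shCHD4#1, 3 shCHD4#2 and 5 shScramble libraries, which the labels describe as biological replicates. Whether each hairpin line is 1 clone is not given in the sources used here, and no culture without doxycycline was analysed here. Bulk RNA was read, in which fewer cells of a type and less RNA per cell cannot be told apart.

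Cells make cholesterol from acetyl-CoA. The mevalonate steps give isoprenoid units, which are joined into farnesyl diphosphate and squalene, squalene is closed into lanosterol, and a chain of endoplasmic reticulum enzymes turns lanosterol into cholesterol. Low sterol lets SCAP carry the SREBP factors to the Golgi, where they are cut free to switch on genes of synthesis and uptake, while INSIG proteins hold SCAP back when sterol is plentiful. High oxysterol activates the nuclear receptors LXR, which switch on the exporters ABCA1 and ABCG1 and MYLIP, the ligase that marks lipoprotein receptors for degradation.

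The targeted genes were low in the libraries meant to lack them. At 48 h CHD4 ranged from 2959 to 3482 normalised counts with shCHD4#1 and from 2722 to 2801 with shCHD4#2, against 9343 to 13099 with shScramble (log2 -1.86 and -2.07, limma adjusted p = 9.38e-08 and 2.57e-08). FLI1 ranged from 1566 to 1829.6 with shFLI1, against 3091 to 4306 with shScramble (log2 -1.17, limma adjusted p = 6.15e-07). The 48 h shScramble libraries, whose genotype label reads CHD4 knockdown, held CHD4 in a range that overlaps that of the 24 h controls (10099 to 12879). The Ewing sarcoma markers CD99, NKX2-2, NR0B1, PRKCB and STEAP1 were detected in every library, and at 48 h all 5 were lower with shFLI1 than in any shScramble library. With shCHD4#2 at 48 h CD99 ranged from 2390 to 4143, against 6106 to 7744 with shScramble, and NR0B1 from 417 to 687, against 779 to 1611. STEAP1 ranged from 1501 to 1868 with shCHD4#1 and from 967 to 1525 with shCHD4#2, against 2419 to 3582 with shScramble. The other ranges of these markers with the CHD4 hairpins at 48 h overlapped that of shScramble. The share of reads from mitochondrial ribosomal RNA at 48 h was 22.1 to 22.5 percent in shFLI1 libraries and 16.2 to 17.98 percent in shScramble libraries, and the part of these shifts in the results was not tested.

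Libraries of 1 group did not all agree on these genes. Replicate 3 of shFLI1 at 48 h was the lowest of its group for 23 of 31 members, against 45.6 percent of all tested genes. Replicate 1 of shCHD4#1 at 48 h was the lowest for 24 of 31, against 38.5 percent. Among the 5 shScramble libraries of a time, replicate 1 was the lowest for 16 of 31 at 24 h and 18 at 48 h. The shares of all tested genes were 17.4 and 24.2 percent. For shScramble replicate 2 the count was 9 of 31 at each time, against 30.7 and 27.7 percent. The 12 libraries that carry replicate number 1 or 2 with shScramble, shCHD4#1 or shCHD4#2, called the first kind below, held 0.313 to 0.388 percent of reads in processed pseudogenes, against 0.223 to 0.283 percent in the other 16, called the second kind, which include every shFLI1 library. With library kind as a term, 75 of the 76 calls of single members against shScramble were kept. Values within the second kind are given for shFLI1 alone, since of each CHD4 group only replicate 3 is of that kind. The first kind alone holds no shFLI1 library.

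Promoter sequences are shown because many of the members moved together with 1 hairpin at 48 h. The RefSeq table of GRCh38.p14, which holds 250 bases before to 50 after each start site, had 27 of the 31 members. The letters TCACNCC, those of a sterol regulatory element, were searched on both strands and found in 7 of these 27 windows (25.9 percent) and in 15.5 percent of 35116 windows of all genes. CCAAT, the box bound by NF-Y, which can overlap TCACNCC by its CC, was found on either strand in 17 of 27 (63 percent), against 34.6 percent of all windows. GGGCGG, the GC box, was found in 24 (88.9 percent, against 45 percent). GGAAGGA, a pair of ETS half-sites in a row, was found in 5 (18.5 percent, against 11.6 percent). All members are protein-coding and tested, while the windows of all genes were not limited to such genes. The shares are thus not of like sets. Among the 17 of the 27 members called lower with shCHD4#2 at 48 h, 6 had TCACNCC and 13 CCAAT, against 1 and 4 of the 10 others. ACAT2, FDFT1 and SQLE, also called lower there, and ABCG1 had no window. The IDI1 window (chr10:1056655-1056954) lies wholly upstream of the position of that gene in the annotation (chr10:1039152-1049170, minus strand). Its TCACNCC match is counted among the 6. Whether the IDI1 reads come from transcripts that start in that window was not tested. Whether the letters bear on the calls was not tested. A match is a string of letters, not a bound site. The matches to TCACNCC in those 6 genes stand below in capitals on the plus strand of the gene, 5′ to 3′, with up to 12 bases before and 11 after.
HMGCS1 (chr5:43313375-43313404, gene strand minus): tcctttcgtggcTCACTCCctttcctctgc
MVK (chr12:109573587-109573616, gene strand plus): ggttcgcagttcTCACCCCagggcgggaca
IDI1 (chr10:1056696-1056725, gene strand minus): cggcgccggaagTCACGCCccggcttccgc
MSMO1 (chr4:165327419-165327444, gene strand plus): ccgcccccTCACGCCgtggcgcgctc
MSMO1 (chr4:165327501-165327530, gene strand plus): gtctcactatccTCACTCCatccgcggagc
NSDHL (chrX:152830924-152830953, gene strand plus): tattgggcaagaTCACGCCgtgagcgccaa
SREBF2 (chr22:41832960-41832989, gene strand plus): gatgacgcgccaTCACCCCacgcaccgctt

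The whole windows of the factor gene SREBF2 and of INSIG1 and STARD4, the 2 members with the largest falls with shCHD4#2, are given with TCACNCC and CCAAT of either strand in capitals. INSIG1 and STARD4 held no TCACNCC in the window.
SREBF2 (chr22:41832855-41833154, plus strand): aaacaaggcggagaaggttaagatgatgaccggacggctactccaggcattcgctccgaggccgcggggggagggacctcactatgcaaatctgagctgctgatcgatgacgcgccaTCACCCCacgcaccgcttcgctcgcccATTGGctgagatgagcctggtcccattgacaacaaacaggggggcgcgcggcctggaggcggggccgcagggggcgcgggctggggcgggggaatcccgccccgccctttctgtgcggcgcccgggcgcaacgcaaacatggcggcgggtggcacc
INSIG1 (chr7:155297628-155297927, plus strand): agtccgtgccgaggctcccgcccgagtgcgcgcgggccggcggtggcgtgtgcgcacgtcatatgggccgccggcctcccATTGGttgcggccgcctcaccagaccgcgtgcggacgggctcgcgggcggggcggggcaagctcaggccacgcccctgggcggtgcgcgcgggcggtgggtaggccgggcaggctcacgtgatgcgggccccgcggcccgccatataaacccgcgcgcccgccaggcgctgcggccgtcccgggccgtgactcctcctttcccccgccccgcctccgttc
STARD4 (chr5:111512486-111512785, minus strand): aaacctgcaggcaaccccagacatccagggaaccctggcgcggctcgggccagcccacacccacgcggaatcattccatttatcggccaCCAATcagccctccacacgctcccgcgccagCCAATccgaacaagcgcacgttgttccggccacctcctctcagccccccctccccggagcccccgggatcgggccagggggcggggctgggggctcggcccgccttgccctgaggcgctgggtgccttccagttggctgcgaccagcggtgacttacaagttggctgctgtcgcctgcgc

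Most of the set was lower with shCHD4#2 at 48 h, and fewer members were lower with shCHD4#1. With shFLI1 the transport and efflux genes were higher and most of synthesis was uncalled. Whether the falls with shCHD4#2 come from loss of CHD4 or from that hairpin alone was not tested. At 48 h with shCHD4#2, 20 of 31 members fell and 2 rose, where 20.3 percent of 21025 tested genes fell and 17.5 percent rose (37.9 percent either way). At 24 h 12 fell and 0 rose by limma, where 1 had an unadjusted p under 0.05 for a rise and edgeR called 0 (7.01 and 4.05 percent of all, 11.1 together). With shCHD4#1, 8 fell and 1 rose at 48 h (15.5 and 12.9 percent, 28.4 together), and 3 fell and 1 rose at 24 h (6.14 and 5.21 percent, 11.3 together). With shFLI1, 9 rose and 7 fell at 48 h (32.2 and 31.7 percent), where 63.9 percent of all genes were called either way, and 11 rose and 2 fell at 24 h (24.2 and 22.5 percent, 46.7 together). The median log2 difference of the 31 at 48 h was 0.01 with shFLI1, -0.30 with shCHD4#1 and -0.82 with shCHD4#2, beside medians over all tested genes of 0.01, -0.01 and 0.01. Within libraries of the second kind alone, 10 members rose and 11 fell with shFLI1 at 48 h, where that fit called 72.2 percent of all genes. At 24 h those counts with shFLI1 were 10 and 4, where 53.4 percent of all genes were called. No such counts are given for the CHD4 hairpins, which have no replicates within the second kind.

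**Figure D1:**
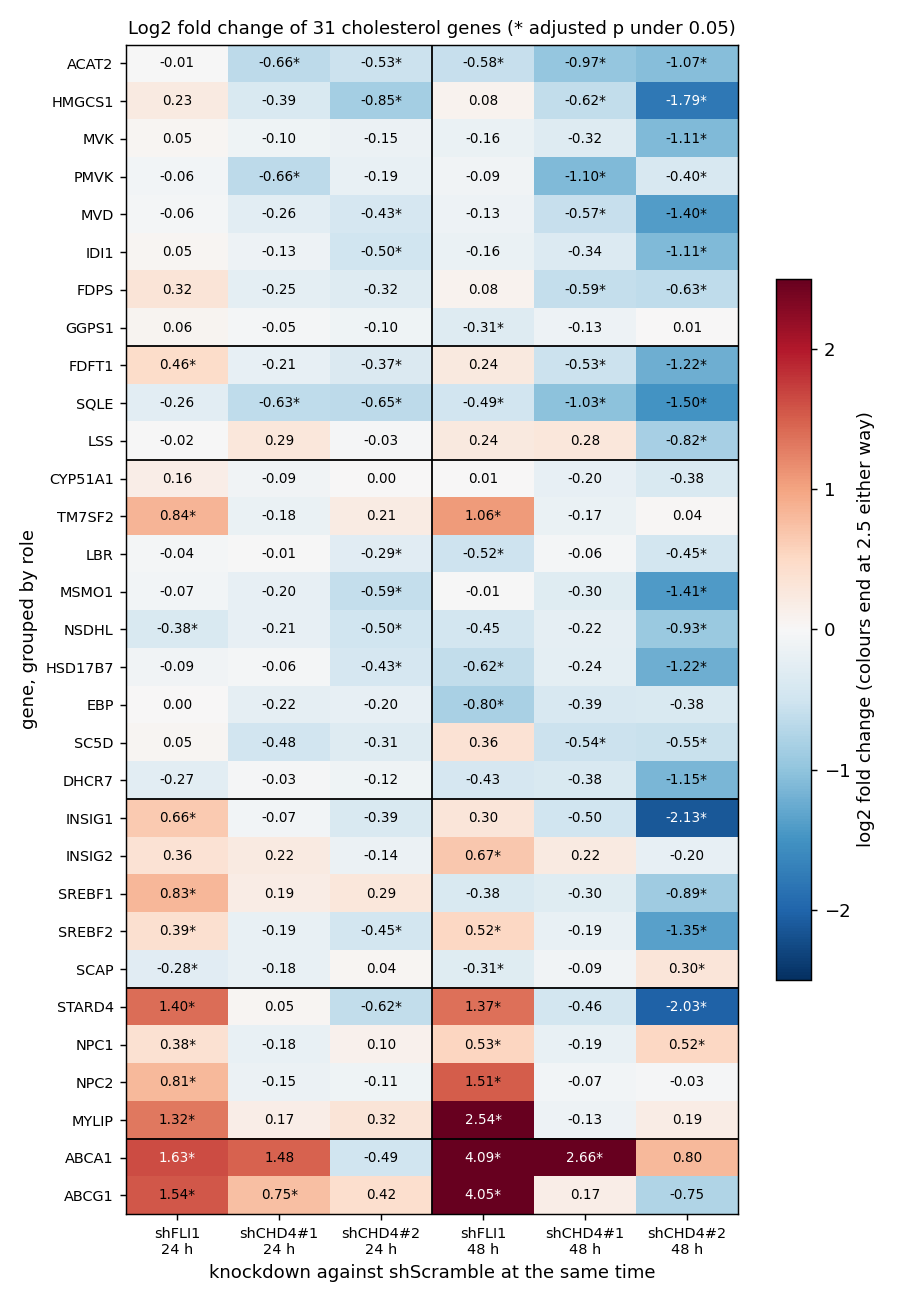
Log2 fold change against shScramble at the same time (colour and number) for the 31 genes, in rows by role, in the 3 knockdowns at 24 h and at 48 h, in columns. An asterisk marks a limma adjusted p under 0.05. The blue block of synthesis genes is deepest in the last column, where HMGCS1 reached -1.79 and SQLE -1.50, and the deepest red cells of the shFLI1 columns lie in the transport and efflux rows.

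The labels give replicate numbers but state no pairing. Their numbers were taken to pair the shScramble and CHD4 libraries, and a fit with the number as a block was made of these groups alone. With that replicate block, 5 members fell and 1 rose with shCHD4#1 at 48 h, and 19 fell and 2 rose with shCHD4#2, where 29 and 41.3 percent of all genes were called. With the replicate block over all 4 groups, 4 members were called with shCHD4#1 at 48 h, against 23.5 percent of all genes. Both hairpins lowered the same 8 members at 48 h (6.24 percent of all tested genes fell with both) and 2 at 24 h (1.46 percent). No member rose with both hairpins at 24 or 48 h by limma, against 1.65 and 5 percent of all tested genes. Both hairpins were set against the same shScramble libraries.

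Of the 8 mevalonate and isoprenoid enzymes, 7 fell with shCHD4#2 at 48 h and 5 with shCHD4#1, and at 24 h 4 and 2 did. Of all tested genes 20.3 and 15.5 percent fell at 48 h, and 7.01 and 6.14 percent at 24 h. With shFLI1, 2 fell at 48 h and 0 of 8 passed the test at 24 h, where 1 had an unadjusted p under 0.05 and edgeR called 1. With that hairpin 31.7 percent of all tested genes fell at 48 h, and 46.7 percent were called at 24 h. The median log2 difference of the 8 at 48 h was -0.14 with shFLI1, -0.58 with shCHD4#1 and -1.09 with shCHD4#2.

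HMGCS1, on chr5:43289395-43313512 (GRCh38, GENCODE 29), encodes the synthase that makes HMG-CoA. At 48 h it had 7059, 6666 and 5345 with shFLI1, 3082, 4513 and 4244 with shCHD4#1, 2005, 1519 and 1708 with shCHD4#2, against 5405, 4589, 6725, 6751 and 6786 with shScramble. All 3 shCHD4#2 libraries and all 3 shCHD4#1 libraries lay below the controls, and the shFLI1 libraries overlapped them. The shCHD4#2 difference was log2 -1.79, SE 0.16, limma adjusted p = 2.39e-06. That of shCHD4#1 was log2 -0.62, SE 0.16, limma adjusted p = 0.0102, a call lost with the replicate block (limma adjusted p = 0.0578) and without shCHD4#1 replicate 1. Already at 24 h HMGCS1 had 3694, 2432 and 2954 with shCHD4#2, against 4463, 5086, 5992, 5605 and 5881 with shScramble, groups that did not overlap (log2 -0.85, SE 0.15, limma adjusted p = 0.00202).

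ACAT2, the cytosolic thiolase that condenses acetyl-CoA, fell in all 3 knockdowns at 48 h. It had 7232, 7368 and 4767 with shFLI1, 4768, 5199 and 4522 with shCHD4#1, 4794, 4201 and 4511 with shCHD4#2, against 8085, 8435, 10792, 9373 and 10950.2 with shScramble, with no overlap between any knockdown and the control. The shFLI1 difference was log2 -0.58, SE 0.14, limma adjusted p = 0.00234. That of shCHD4#1 was log2 -0.97, SE 0.14, limma adjusted p = 0.000196, and that of shCHD4#2 log2 -1.07, SE 0.14, limma adjusted p = 5.22e-05. At 24 h ACAT2 fell with both CHD4 hairpins, by 0.66 and 0.53 on the log2 scale (limma adjusted p = 0.00758 and 0.0254), and with shFLI1 the difference was -0.01 (limma adjusted p = 0.968). The shCHD4#1 call at 24 h was lost without replicate 2 of that group. The shCHD4#2 call was lost without its replicate 2 or control replicate 3 and in a fit of the 2 groups alone. ACAT2 shares 397 exonic bases with TCP1 on the opposite strand, a gene of higher count, and the strand setting of counting is not given, so their reads cannot be told apart there.

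MVD, the decarboxylase that ends the mevalonate steps, had 2231, 2201 and 1601 with shFLI1, 1133, 1698 and 1619.6 with shCHD4#1, 817, 850.2 and 798 with shCHD4#2, against 1613, 1759, 2590.4, 2566 and 2563 with shScramble at 48 h. The shCHD4#2 libraries lay far below the controls (log2 -1.40, SE 0.18, limma adjusted p = 5.27e-05), while 1 shCHD4#1 library lay below them and 2 overlapped (log2 -0.57, SE 0.18, limma adjusted p = 0.0311). That shCHD4#1 call was lost with the replicate block (limma adjusted p = 0.0754), in a fit of the 2 groups alone, and without shCHD4#1 replicate 1 or shScramble replicate 3, 4 or 5. IDI1, the isopentenyl isomerase, had 3241, 3170.4 and 2424 with shFLI1, 2114, 3058 and 2664 with shCHD4#1, 1624, 1531 and 1388 with shCHD4#2, against 2651, 2806, 3661, 3631 and 3769.7 with shScramble. It fell in the shCHD4#2 libraries (log2 -1.11, SE 0.15, limma adjusted p = 6.4e-05), and its shFLI1 and shCHD4#1 libraries overlapped the controls. The fall of IDI1 with shCHD4#2 was called at 24 h too (log2 -0.50, SE 0.10, limma adjusted p = 0.00466).

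MVK, the mevalonate kinase, was called only with shCHD4#2 at 48 h (log2 -1.11, SE 0.20, limma adjusted p = 0.000544), among the 6 comparisons with shScramble. PMVK, the next kinase, went lower with shCHD4#1 than with shCHD4#2, at 350.5 ± 67.4 and 565 ± 54.9, against 750.2 ± 104 with shScramble (SD, n = 3, 3 and 5). Its 48 h differences were log2 -1.10 and -0.40 (limma adjusted p = 7.36e-05 and 0.0336). The shCHD4#2 call of PMVK was lost without shCHD4#2 replicate 2 or 3 or shScramble replicate 3 or 5. FDPS, the farnesyl diphosphate synthase, fell by like amounts with both hairpins at 48 h, log2 -0.59 with shCHD4#1 and -0.63 with shCHD4#2. The shCHD4#1 call of FDPS was lost with the replicate block over all 4 groups (limma adjusted p = 0.0584) and kept in the blocked fit without shFLI1 libraries (0.0142). GGPS1, which makes geranylgeranyl diphosphate for protein prenylation, a branch off the sterol path, passed the test only with shFLI1 at 48 h among those 6 comparisons (log2 -0.31, SE 0.09, limma adjusted p = 0.0087). GGPS1 differed by 0.01 with shCHD4#2 at 48 h, and shares 37.3 percent of its exonic bases with TBCE on the same strand.

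The 3 enzymes from farnesyl diphosphate to lanosterol all fell with shCHD4#2 at 48 h, and 2 of the 3 did with shCHD4#1 (20.3 and 15.5 percent of all tested genes). SQLE, the squalene monooxygenase and an oxygen-using control point of the path, had 26097, 25337 and 17648 with shFLI1, 12924, 18037 and 16088 with shCHD4#1, 12510.1, 10908 and 10457 with shCHD4#2, against 26556, 26970.2, 36448, 34857 and 35509 with shScramble at 48 h. All 9 knockdown libraries lay below the lowest control. The shFLI1 difference was log2 -0.49, SE 0.15, limma adjusted p = 0.0131. That of shCHD4#1 was log2 -1.03, SE 0.15, limma adjusted p = 0.000255, and that of shCHD4#2 log2 -1.50, SE 0.15, limma adjusted p = 7.42e-06. The shFLI1 call was lost without replicate 3 of that group. SQLE also fell with both CHD4 hairpins at 24 h, with 19558, 17466 and 19922 with shCHD4#1, 20705, 16375 and 19420.4 with shCHD4#2, against 24261, 27050.0, 32306, 30485 and 33500.5 with shScramble (log2 -0.63 and -0.65, limma adjusted p = 0.00307 and 0.00256). Per kilobase of exon SQLE had the highest level of the 31 in 48 h shScramble cells, 7449 ± 1133 (SD, n = 5), and ABCA1 the lowest, 0.227 ± 0.359.

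FDFT1, the squalene synthase, had 7129, 6494 and 4925 with shFLI1, 2898, 4391 and 3601 with shCHD4#1, 2364, 2265 and 2022 with shCHD4#2, against 4307, 4451, 5972, 5732 and 5606 with shScramble at 48 h. It fell in the shCHD4#2 libraries (log2 -1.22, SE 0.15, limma adjusted p = 3.75e-05). The fall with shCHD4#1 was smaller (log2 -0.53, SE 0.15, limma adjusted p = 0.0193), and there 1 of 3 libraries overlapped the controls and the call was lost with the replicate block (limma adjusted p = 0.0655) and without shCHD4#1 replicate 1 or 3. At 24 h FDFT1 rose with shFLI1, to 6955, 6748 and 6544, against 4034, 4771, 5145, 5355 and 5305 with shScramble (log2 0.46, SE 0.11, limma adjusted p = 0.00319), and at 48 h that difference was 0.24 (limma adjusted p = 0.183). The 24 h call with shCHD4#2 (log2 -0.37, limma adjusted p = 0.0467) was lost in 12 of the fits that left out 1 library and with the replicate block. LSS, which closes the ring to lanosterol, had 10579, 9751 and 9971 with shFLI1, 7953, 12488 and 11092 with shCHD4#1, 5380.3, 4453 and 4683 with shCHD4#2, against 7685, 8792, 8524, 9128 and 8577 with shScramble at 48 h. It fell with shCHD4#2 (log2 -0.82, SE 0.12, limma adjusted p = 0.000127), while with shFLI1 and shCHD4#1 it differed by 0.24 and 0.28, neither called, although all 3 shFLI1 libraries lay above the controls.

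**Figure D2:**
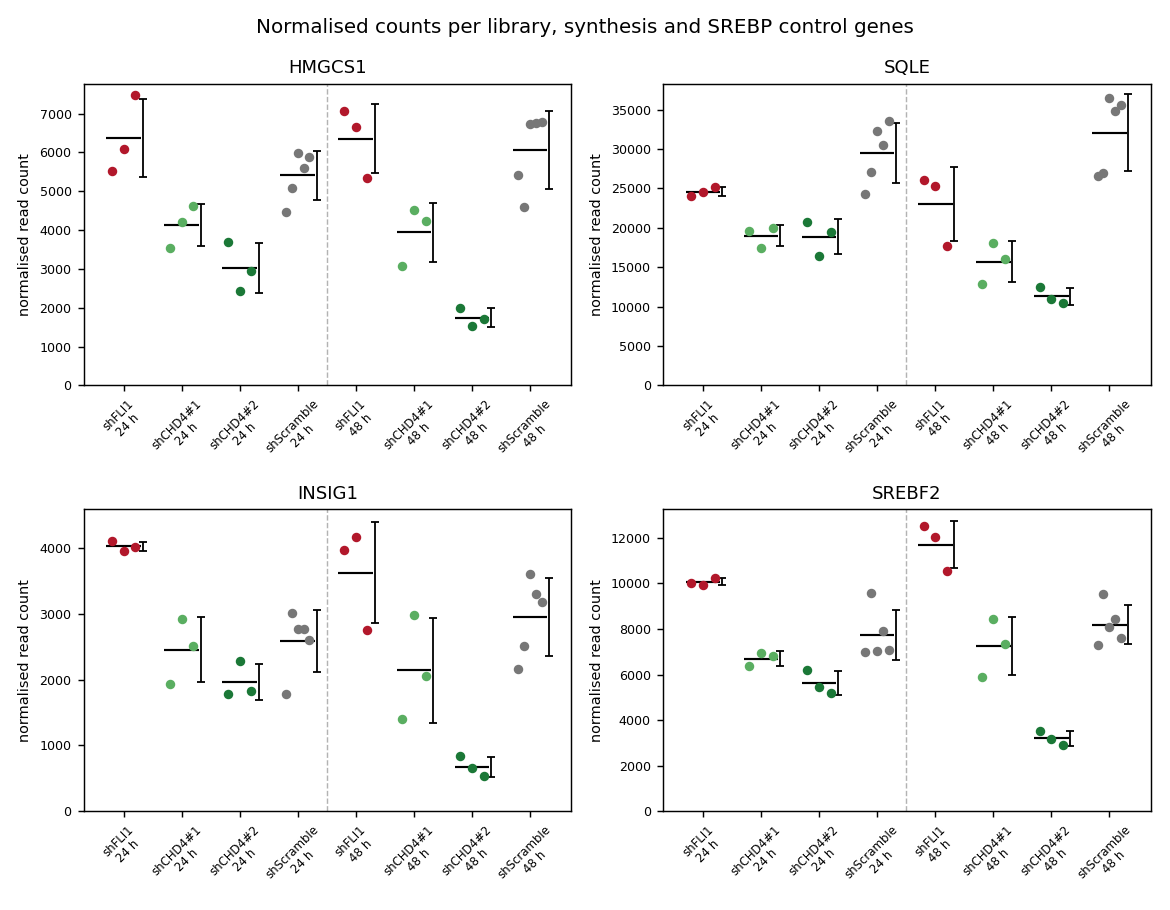
Normalised read count of HMGCS1, SQLE, INSIG1 and SREBF2 in every library, by hairpin and time, on linear axes that start at 0. Points are libraries, horizontal lines group means and error bars 1 SD (n = 3, or 5 for shScramble). All 3 shCHD4#2 libraries at 48 h lie below the lowest shScramble library in each of the 4 panels.

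Of the 9 enzymes from lanosterol to cholesterol, 6 fell with shCHD4#2 and 1 with shCHD4#1 at 48 h, and 4 and 0 did at 24 h. Of all tested genes 20.3 and 15.5 percent fell at 48 h, and 7.01 and 6.14 percent at 24 h. The 0 of shCHD4#1 at 24 h compares with 1 at an unadjusted p under 0.05, 0 by edgeR and 1 by DESeq2. With shFLI1, 3 fell and 1 rose at 48 h, and 1 fell and 1 rose at 24 h, where 63.9 and 46.7 percent of all tested genes were called. MSMO1, the methylsterol oxidase, had 3716, 3488 and 2406 with shFLI1, 1997, 3332 and 2539.6 with shCHD4#1, 1362, 1170.0 and 1059 with shCHD4#2, against 3012, 3363, 3183, 3202 and 3090.3 with shScramble at 48 h, and its 3 shCHD4#2 libraries stood apart from all others (log2 -1.41, SE 0.16, limma adjusted p = 1.47e-05).

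HSD17B7, the ketoreductase of sterol demethylation, had 1266, 1286 and 953 with shFLI1, 1189, 1767 and 1624 with shCHD4#1, 782, 736 and 767 with shCHD4#2, against 1405, 1736, 1878, 2019 and 1925 with shScramble at 48 h. It fell with shFLI1 (log2 -0.62, SE 0.15, limma adjusted p = 0.00193) and also in shCHD4#2 libraries (log2 -1.22, SE 0.15, limma adjusted p = 2.46e-05), both without overlap with the controls, and the shCHD4#1 libraries overlapped them. The pseudogene HSD17B7P2 was counted at 5.63 percent of the level of HSD17B7, so a small share of its reads may be split. NSDHL, the dehydrogenase of the same complex, fell with shCHD4#2 at 48 h (log2 -0.93, SE 0.20, limma adjusted p = 0.00245), and the nearby value of -0.45 with shFLI1 was not called (limma adjusted p = 0.0611).

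TM7SF2 and LBR are a pair of sterol reductases that act on the same double bond, and they moved apart with shFLI1. TM7SF2 had 1864, 1813 and 1432 with shFLI1, 648, 777 and 735 with shCHD4#1, 798, 839 and 853 with shCHD4#2, against 648, 636, 1088, 839 and 916 with shScramble at 48 h. It rose with shFLI1 at 48 h (log2 1.06, SE 0.16, limma adjusted p = 4.08e-05) and at 24 h (log2 0.84, SE 0.11, limma adjusted p = 3.39e-05), with no overlap at either time. LBR, which is also a receptor of the nuclear lamina, had 5098, 5089 and 5189 with shFLI1, 6514, 7685 and 7032 with shCHD4#1, 5133, 5224 and 5748 with shCHD4#2, against 6341, 8259, 7881, 7091 and 7263 with shScramble at 48 h. It fell with shFLI1 (log2 -0.52, SE 0.09, limma adjusted p = 0.00014) and also in shCHD4#2 libraries (log2 -0.45, SE 0.09, limma adjusted p = 0.00122), whereas TM7SF2 differed by 0.04 with shCHD4#2.

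EBP, the sterol isomerase, fell with shFLI1 at 48 h, to 1054 ± 186, against 1848 ± 353 with shScramble (SD, n = 3 and 5; log2 -0.80, SE 0.15, limma adjusted p = 0.000234), while at 24 h it differed by 0.00. EBP lay below the control range in all 6 CHD4 knockdown libraries at 48 h without passing the test (log2 -0.39 and -0.38, limma adjusted p = 0.0584 and 0.0516). DHCR7, the reductase of the last step from dehydrocholesterol, fell with shCHD4#2 (log2 -1.15, SE 0.23, limma adjusted p = 0.00151), to 1989.6 ± 305, against 4489 ± 1104 with shScramble (SD, n = 3 and 5), with no overlap. SC5D, the desaturase before it, fell with both hairpins by 0.54 and 0.55 on the log2 scale, and both calls were lost with the replicate block (limma adjusted p = 0.0806 and 0.0591). CYP51A1, the lanosterol demethylase, passed in none of the 6 comparisons, with differences from -0.38 to 0.16. With CYP51A1 at 48 h in shCHD4#2 the limma adjusted p was 0.0624, although those libraries lay below all controls. CYP51A1 shares 79.3 percent of its exonic bases with AC000120.2 on the same strand, so reads of the pair cannot be told apart there.

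Of the 5 genes of SREBP control, SREBF2 rose with shFLI1 and fell with shCHD4#2 at both times. Of the 5, 3 rose and 1 fell with shFLI1 at 24 h and 2 rose and 1 fell at 48 h, whereas 1 fell with shCHD4#2 at 24 h and 3 fell and 1 rose at 48 h. Over all tested genes 46.7 and 63.9 percent were called with shFLI1 at 24 and 48 h. The shares were 11.1 and 37.9 percent with shCHD4#2 and 11.3 and 28.4 percent with shCHD4#1. With shCHD4#1 none passed the limma test at either time, where 0 and 1 had an unadjusted p under 0.05 and edgeR and DESeq2 called 0. SREBF2, the gene of the factor that mainly drives sterol synthesis, on chr22:41833079-41907308, had 12538, 12057 and 10529.5 with shFLI1, 5912, 8457 and 7346 with shCHD4#1, 3524, 3177 and 2893 with shCHD4#2, against 7307, 9518, 8091, 8446 and 7589 with shScramble at 48 h. All 3 shFLI1 libraries stood above every control and all 3 shCHD4#2 libraries below, and the differences were log2 0.52, SE 0.12, limma adjusted p = 0.00152 and log2 -1.35, SE 0.12, limma adjusted p = 2.03e-06. The same order held at 24 h, with 10029, 9942 and 10245 with shFLI1, 6208, 5448 and 5207 with shCHD4#2, against 6998, 9582, 7050.3, 7903 and 7085 with shScramble, and both differences passed (log2 0.39 and -0.45, limma adjusted p = 0.00663 and 0.0127). The 24 h shCHD4#2 call of SREBF2 was lost in the 2 groups alone (limma adjusted p = 0.0666) and without shCHD4#2 replicate 2 or 3.

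INSIG1, a retention protein of the SCAP complex and itself a target of SREBP factors, on chr7:155297776-155310235, had 3967, 4165 and 2748 with shFLI1, 1397, 2982 and 2052 with shCHD4#1, 832, 659.5 and 533 with shCHD4#2, against 2165, 2509, 3608, 3296 and 3181 with shScramble at 48 h. Its shCHD4#2 libraries were all below the lowest control, the largest fall of the set (log2 -2.13, SE 0.24, limma adjusted p = 1.3e-05), and 2 of 3 shCHD4#1 libraries were below it (log2 -0.50, limma adjusted p = 0.126). At 24 h INSIG1 rose with shFLI1, to 4105, 3961 and 4013, against 1785, 3007, 2766, 2774 and 2597 with shScramble (log2 0.66, SE 0.16, limma adjusted p = 0.00384). INSIG2, its paralogue, had 463, 507 and 649 with shFLI1, 346, 396 and 432 with shCHD4#1, 278, 295 and 305 with shCHD4#2, against 304, 332, 328, 349 and 369 with shScramble at 48 h. INSIG2 rose with shFLI1 (log2 0.67, SE 0.12, limma adjusted p = 0.000265), and its shCHD4#2 libraries ran from just below the control range into it.

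SREBF1, the gene of the factor that mainly drives fatty acid synthesis, had 5916, 5027 and 4861 with shFLI1, 2852, 4284 and 3117 with shCHD4#1, 3349.7, 4371 and 3217 with shCHD4#2, against 2839.9, 4698, 2635, 2581 and 2461 with shScramble at 24 h. The shFLI1 libraries lay above all controls, of which replicate 2 stood well above the other 4 (log2 0.83, SE 0.20, limma adjusted p = 0.00292). By 48 h SREBF1 had 2233, 2583 and 2123 with shFLI1, 2025, 3161 and 2275 with shCHD4#1, 1556, 1778 and 1517 with shCHD4#2, against 2387, 4508, 3363, 2773 and 2424 with shScramble, and the 3 shFLI1 libraries no longer lay above the controls (log2 -0.38, SE 0.19, limma adjusted p = 0.0945), while shCHD4#2 lay below (log2 -0.89, SE 0.19, limma adjusted p = 0.00214). SCAP, the sterol-sensing escort, differed by log2 -0.31 with shFLI1 and 0.30 with shCHD4#2 at 48 h (limma adjusted p = 0.00715 and 0.0159). The shFLI1 call of SCAP was lost without shFLI1 replicate 3, and the shCHD4#2 call without shCHD4#2 replicate 2 or 3.

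All 4 uptake and transport genes rose with shFLI1 at both times, and STARD4 alone of the 4 fell with shCHD4#2. Of all tested genes 24.2 and 32.2 percent rose with shFLI1 at 24 and 48 h. STARD4, which carries cholesterol between membranes, on chr5:111496033-111512590, had 2078, 2264 and 1498 with shFLI1, 435, 718 and 503 with shCHD4#1, 237, 169 and 149.5 with shCHD4#2, against 665, 876, 763, 728 and 696 with shScramble at 48 h. The shFLI1 libraries were all above and the shCHD4#2 libraries all below every control, and the differences were log2 1.37, SE 0.19, limma adjusted p = 1.66e-05 and log2 -2.03, SE 0.19, limma adjusted p = 3.06e-06. The 24 h values were 1436, 1475 and 1674 with shFLI1, 394, 357 and 378 with shCHD4#2, against 400.3, 728, 639, 639 and 537 with shScramble, again without overlap (log2 1.40, SE 0.18, limma adjusted p = 1.98e-05, and log2 -0.62, SE 0.18, limma adjusted p = 0.0408). That 24 h call with shCHD4#2 was lost in 10 of the fits that left out 1 library.

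MYLIP, the ubiquitin ligase that sends lipoprotein receptors to degradation, on chr6:16129125-16148248, had 11938, 11620.4 and 9886 with shFLI1, 1649, 1869 and 1748 with shCHD4#1, 1770.3, 2724 and 2152 with shCHD4#2, against 1859, 2401, 1973, 1655 and 1758 with shScramble at 48 h. The lowest shFLI1 library held over 3 times the highest of the other libraries of that time. The difference was log2 2.54, SE 0.14, limma adjusted p = 1.85e-09, against log2 1.32, SE 0.10, limma adjusted p = 1.6e-07 at 24 h, when the shFLI1 libraries had 4132, 4931 and 4947, against 1779.9, 2198, 1948, 1803 and 1637 with shScramble. With the CHD4 hairpins MYLIP differed by -0.13 and 0.19 at 48 h, neither called.

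NPC2, the soluble lysosomal protein that hands cholesterol to NPC1, had 1599, 1581 and 1107 with shFLI1, 513, 505 and 405 with shCHD4#1, 560.0, 492 and 409 with shCHD4#2, against 549, 455, 541, 412 and 531 with shScramble at 48 h. It rose with shFLI1 at 48 h (log2 1.51, SE 0.15, limma adjusted p = 8.97e-07) and at 24 h (log2 0.81, SE 0.11, limma adjusted p = 4.61e-05), and its CHD4 knockdown libraries overlapped the controls. NPC1, the lysosomal membrane exporter, had 1243, 1097 and 1332 with shFLI1, 809.7, 716 and 693 with shCHD4#1, 1044, 1447 and 1159 with shCHD4#2, against 813, 701, 877, 973 and 875 with shScramble at 48 h. It rose with shFLI1 (log2 0.53, SE 0.13, limma adjusted p = 0.00188) and also in shCHD4#2 libraries (log2 0.52, SE 0.13, limma adjusted p = 0.00524). Both calls were lost in the authors' deposited table. At 24 h NPC1 rose with shFLI1 (log2 0.38, SE 0.12, limma adjusted p = 0.0168), a call lost within the second kind (limma adjusted p = 0.0561) and without shFLI1 replicate 1.

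**Figure D3:**
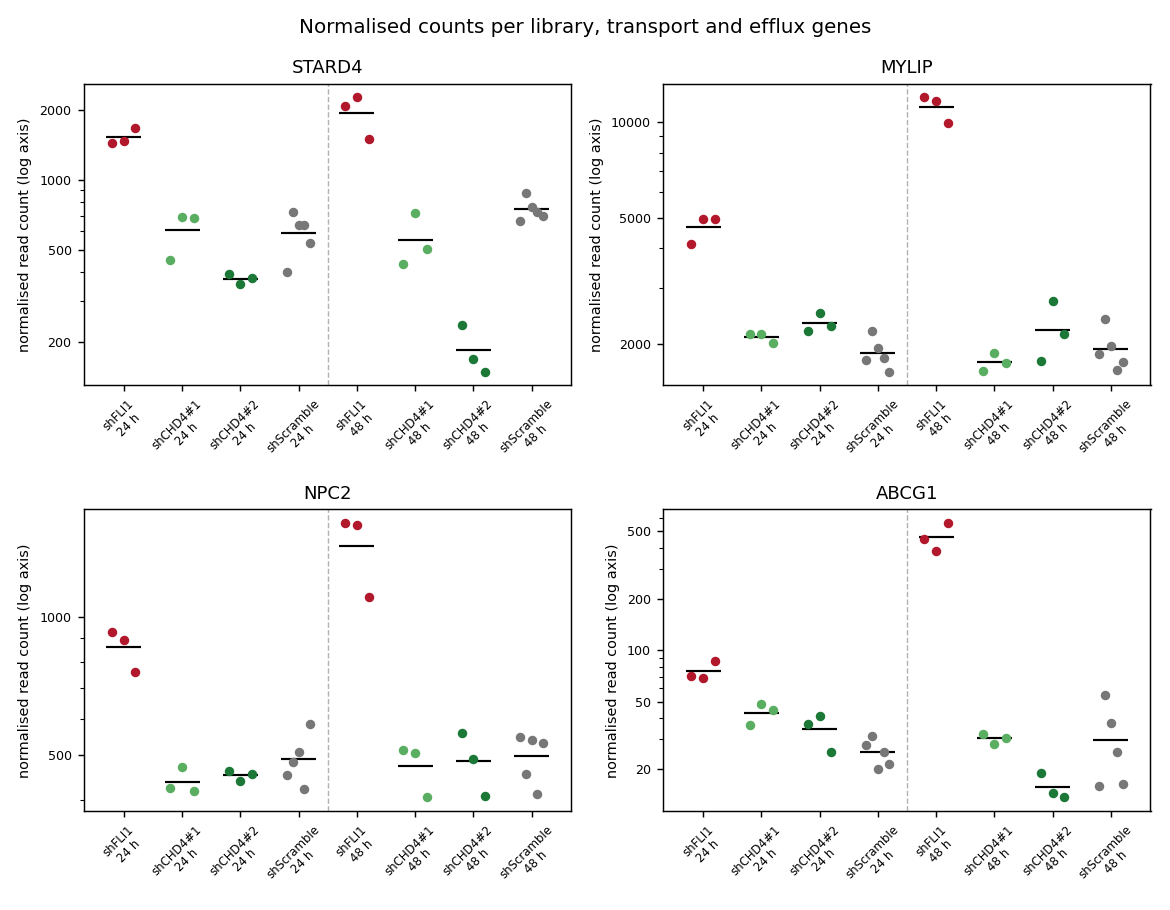
Normalised read count of STARD4, MYLIP, NPC2 and ABCG1 in every library, by hairpin and time, on log axes. Points are libraries and horizontal lines group means (n = 3, or 5 for shScramble). The 3 shFLI1 libraries lie above all others of the same time in each panel, and the shCHD4#2 libraries lie lowest for STARD4.

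Both efflux genes rose with shFLI1 at both times (24.2 and 32.2 percent of all tested genes at 24 and 48 h), where control levels were low. ABCG1, which passes cholesterol to high-density lipoprotein, on chr21:42199689-42297244, had 454, 384 and 559.6 with shFLI1, 32.4, 28.2 and 30.6 with shCHD4#1, 19, 14.5 and 13.7 with shCHD4#2, against 16.1, 54.6, 37.6, 25.2 and 16.4 with shScramble at 48 h. The shFLI1 libraries lay far above every other, and the control libraries themselves ranged widely (log2 4.05, SE 0.34, limma adjusted p = 1.13e-07). At 24 h ABCG1 had 70.3, 69.2 and 86.2 with shFLI1, 36.4, 48.4 and 44.7 with shCHD4#1, 37, 41 and 25.3 with shCHD4#2, against 27.8, 31.6, 20.2, 25.3 and 21.7 with shScramble, with shFLI1 and shCHD4#1 above the controls. At 24 h the shFLI1 difference was log2 1.54, SE 0.22, limma adjusted p = 4.21e-05. That of shCHD4#1 was log2 0.75, SE 0.22, limma adjusted p = 0.0355. The shCHD4#1 call was lost with the replicate block (limma adjusted p = 0.0508) and in a fit of the 2 groups alone.

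ABCA1, which loads lipid onto apolipoprotein A-I, on chr9:104781002-104928237, was near the limit of detection, with 0 to 345 reads a library. At 48 h it had 15.4, 11.5 and 358 with shFLI1, 17.4, 17.5 and 9.88 with shCHD4#1, 5.7, 1.81 and 3.16 with shCHD4#2, against 9.82, 1.03, 0, 0.933 and 1.09 with shScramble. Replicate 3 of shFLI1 held most of that group's counts. The shFLI1 and shCHD4#1 libraries lay above the controls and overlapped each other, and the shCHD4#2 libraries overlapped the controls. The difference was log2 4.09, SE 0.95, limma adjusted p = 0.0016 with shFLI1, and log2 2.54 (limma adjusted p = 0.00706) without replicate 3. DESeq2 gave no adjusted p for that difference of ABCA1 (log2 5.64), and the authors' deposited table gives log2 6.47. With shCHD4#1 the difference was log2 2.66, SE 0.95, limma adjusted p = 0.0485, a call that held in 7 of the 24 alternatives with an adjusted p. For 24 h the values were 16.5, 7.82 and 5.53 with shFLI1, 8.67, 8.64 and 6.95 with shCHD4#1, 4.83, 0 and 1.1 with shCHD4#2, against 1.85, 4.86, 1.01, 2.11 and 2.41 with shScramble, and the shFLI1 call (log2 1.63, SE 0.52, limma adjusted p = 0.0191) was lost without replicate 1 of that group. At counts this low the log2 differences depend on the pseudocount of 1: with a pseudocount of 5 the 48 h shFLI1 difference of ABCA1 was 2.84.

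The CHD4 hairpins did not differ in CHD4 by the limma test (log2 0.21 of shCHD4#1 over shCHD4#2 at 48 h, SE 0.11, limma adjusted p = 0.164), and differed for most of the set. Yet CHD4 at 48 h was higher in every shCHD4#1 library (2959 to 3482) than in any shCHD4#2 library (2722 to 2801). In the direct comparison at 48 h, 17 of 31 members were higher and 3 lower with shCHD4#1 than with shCHD4#2 (19.2 and 18.6 percent of all tested genes, 37.9 percent either way). The higher ones included 12 of the 20 enzymes of synthesis and 4 of the 5 genes of SREBP control, led by INSIG1 (log2 1.62), STARD4 (1.57), SREBF2 (1.17), HMGCS1 (1.17), MSMO1 (1.11) and LSS (1.10). PMVK (-0.70), NPC1 (-0.71) and SCAP (-0.39) were lower with shCHD4#1. ACAT2 and FDPS did not pass between the hairpins (log2 0.10, SE 0.16, and 0.04, SE 0.17). At 24 h 2 members were higher and 0 lower with shCHD4#1 (5.62 and 4 percent of all, 9.62 together), where 2 had an unadjusted p under 0.05 for a lower level and edgeR called 0, and with the replicate block without shFLI1 libraries 11 were higher and 3 lower, where that fit called 27 percent of all genes.

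Part of the set moved further with shCHD4#2 at 48 h than at 24 h. Its fold change was lower at 48 h for 11 of 31 members and higher for 0 (0.694 and 0.295 percent of all tested genes, 0.989 together), where 1 had an unadjusted p under 0.05 for a higher value and edgeR called 0. Among the 11 were INSIG1 (log2 -1.74, SE 0.30, limma adjusted p = 0.00981), STARD4 (log2 -1.41), SREBF1 (-1.19), MVD (-0.97) and LSS (-0.79). With the replicate block 0 of the 11 passed, but that fit called only 0.019 percent of all genes. The 28 fits that left out 1 library called 1 to 14, with 1 without shCHD4#2 24 h replicate 1, 2 without shCHD4#2 48 h replicate 2 and 7 or fewer in 16 of the 28. For shCHD4#1 limma called 0 of 31 differences between times (0.00476 percent of all genes), where 1 had an unadjusted p under 0.05 and edgeR called 0. The effect of shFLI1 was higher at 48 h for ABCG1 (log2 2.51, SE 0.40, limma adjusted p = 8.05e-05), MYLIP (log2 1.22) and NPC2 (0.70), and lower for SREBF1 (log2 -1.21, SE 0.29, limma adjusted p = 0.00427), EBP (log2 -0.80) and LBR (-0.48), 3 and 3 of 31 (7.22 and 9.44 percent of all, 16.7 together). Between 24 and 48 h of shScramble itself 0 of 31 members and 0 of 21025 genes passed by limma, 1 member and 485 genes had an unadjusted p under 0.05, and edgeR called 0 members.

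**Figure D4:**
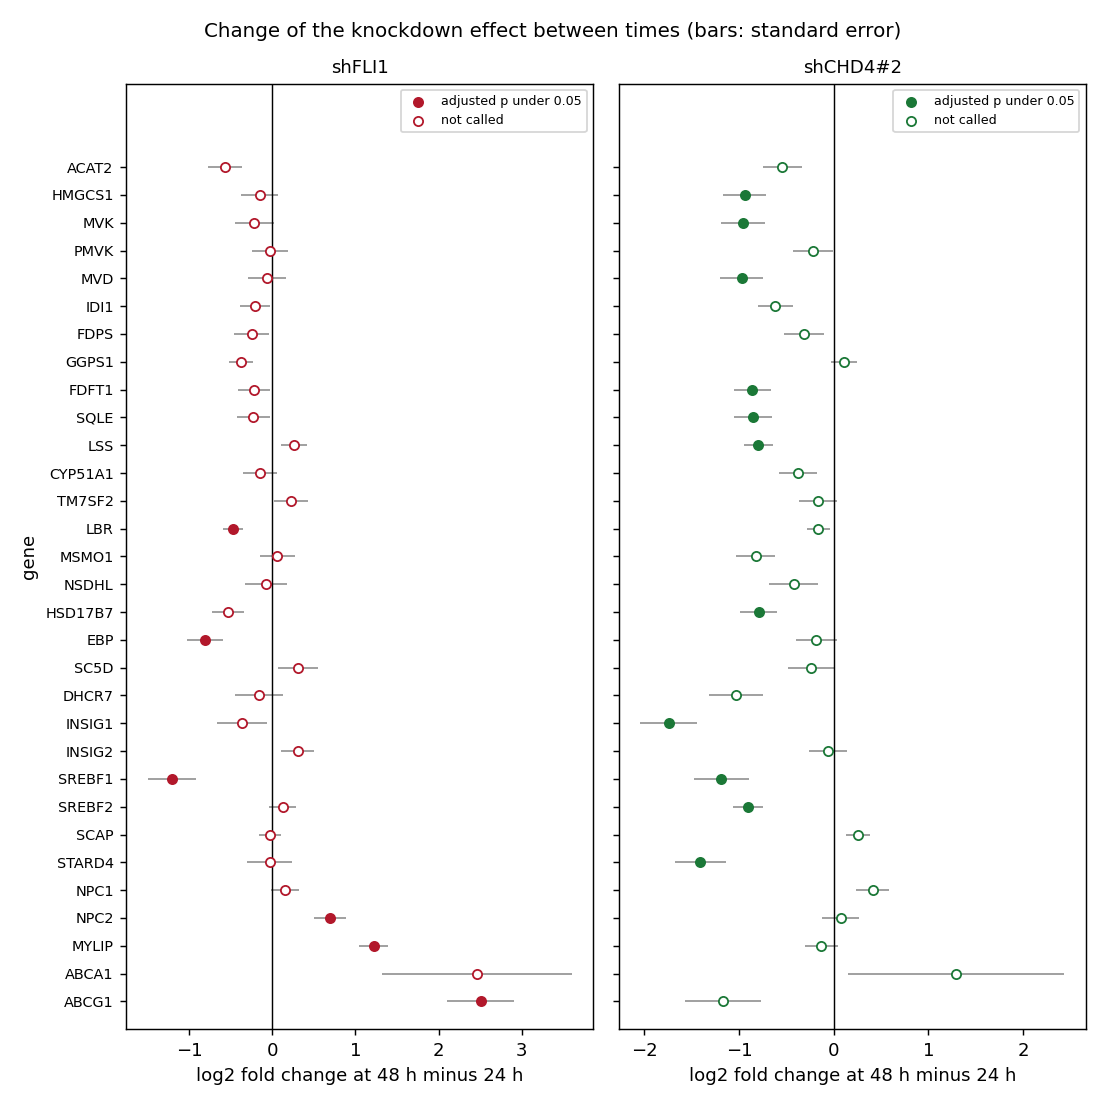
Log2 fold change against shScramble at 48 h minus that at 24 h, with its standard error, for the 31 genes, with shFLI1 on the left and shCHD4#2 on the right. Filled points have a limma adjusted p under 0.05. Filled points run from -1.21 to 2.51 with shFLI1, and all 11 with shCHD4#2 lie below 0.

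Set directly against the mean of both CHD4 hairpins at 48 h, shFLI1 had 22 of 31 members higher and 4 lower (32.9 and 32.8 percent of all tested genes, 65.7 together), and at 24 h 18 higher and 0 lower (28 and 24.8 percent, 52.9 together), where 1 had an unadjusted p under 0.05 for a lower level and edgeR called 1. Of the 20 enzymes 13 were higher and 3 lower at 48 h, of which the 3 largest differences were HMGCS1 (log2 1.28, SE 0.15, limma adjusted p = 4.77e-06), TM7SF2 (log2 1.13) and FDFT1 (1.12). All 6 transport and efflux genes were higher, from 0.37 for NPC1 to 4.34 for ABCG1. SCAP (-0.42), EBP (-0.42), LBR (-0.26) and GGPS1 (-0.25) were lower with shFLI1.

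Of 31 other genes of the wider pathway, all tested, 13 rose and 12 fell with shFLI1 at 48 h and 9 rose and 11 fell at 24 h. Of all tested genes 32.2 percent rose and 31.7 percent fell at 48 h, and 24.2 and 22.5 percent at 24 h. With shCHD4#1 1 rose and 8 fell at 48 h (12.9 and 15.5 percent of all), and with shCHD4#2 8 rose and 7 fell (17.5 and 20.3 percent). PDSS1, which makes the isoprenoid tail of coenzyme Q, fell with shFLI1 (log2 -3.42, SE 0.12, limma adjusted p = 4e-11) and differed by 0.12 and -0.04 with the CHD4 hairpins. SCARB1, the receptor of high-density lipoprotein, fell with shFLI1 (log2 -2.32, SE 0.12, limma adjusted p = 8.81e-10), as did the lipoprotein receptor LRP8 (log2 -2.23) and FNTB, a subunit of protein farnesyltransferase (-1.46). LRP1, an endocytic receptor, rose with shFLI1 (1.70) and shCHD4#1 (1.09), and LIPA, the lysosomal lipase that frees cholesterol from its esters, rose with shFLI1 (1.67). Of 8 fatty acid genes, 2 rose and 5 fell with shFLI1 at 48 h, 1 rose and 4 fell with shCHD4#1, and 1 rose and 5 fell with shCHD4#2. The 48 h shares of all tested genes are those given above in the same paragraph.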

How the data were processed

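RNA of 28 SK-N-MC libraries was sequenced in bulk. The deposited values, which are a signal unit, are gene read counts that the authors divided by 1 size factor per library. Per the submitters' processing notes, alignment tools were HISAT2 2.1.0 and SAMtools 1.7 on GRCh38, counting and scaling tools featureCounts 1.6.0 and DESeq2 1.34.0, and quality control FastQC 0.11.7, and the strand setting of counting is not given in the sources used here. Both deposited tables held the same 35488 genes and 28 libraries. Whole reads were recovered from the steps of the values, at least 99.93 percent of them whole within 0.02, and came to 46102707 to 64775441 reads a library. The authors' deposited tables of log2 fold changes and adjusted p-values served as an alternative only, and the table for shFLI1 at 24 h was not used, since it gives FLI1 a log2 fold change of -0.14, against -1.16 from the deposited counts. No source used here says which comparison that table holds. The test statistic that the authors deposited in that table, a score, was not used either.

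The values were tested on the scale of log2(value + 1) with limma 3.58.1 (R 4.3.3), with a trend of the variance on the mean, over the 21025 genes of a mean of at least 10. The 4 groups of a time were fitted together, differences between times in a fit of all 28 libraries, and p-values were adjusted by Benjamini-Hochberg over all tested genes, with calls at 0.05. A fold change on this scale understates the change of low genes. Each count of calls was recomputed with edgeR 4.0.16 on the recovered reads, with a pseudocount of 5, with no filter on low values and with median centring. Further fits took the replicate number as a block, took library kind as a term or left out each library in turn. DESeq2 1.42.0 on the recovered reads, the second kind alone and the 2 groups alone were run only for comparisons of a knockdown with shScramble. Members and lists were chosen with earlier results of these data known. Values by library are printed for up to 4 members of each role, those of the smallest adjusted p in any comparison of a knockdown with shScramble, and for other pathway genes up to 6 are named by the same rule.

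The replicate numbers come from the sample titles. Same-numbered libraries of shScramble and both CHD4 hairpins deviated together in 18 of 18 pairs (correlations of 0.129 to 0.708), and pairs with shFLI1 did not (-0.177 to 0.103), so the numbers were taken to pair the shScramble and CHD4 libraries alone. Between these groups, replicate 1 and replicate 2, both of the first kind, also correlated at 24 h (0.139 to 0.223). At 48 h those values were -0.109 to 0.0494. The part of library kind in this agreement was not tested. Test scripts were run on simulated counts before use.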

Additional observations from a re-analysis of the deposited data

Results flagged for a closer look

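In 3 of 62 groups of 5 shScramble libraries, 1 library stood apart from the other 4 by Dixon's criterion, and chance flags about 1 in 20 groups. They were MVD at 24 h (1678 normalised counts in the library that stood apart), SREBF1 at 24 h (4698) and ABCA1 at 48 h (9.82).

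The fold change against shScramble differed between times, by limma's test of the difference, for 6 members with shFLI1. At 48 h minus 24 h it was lower for LBR (log2 -0.48), EBP (-0.80) and SREBF1 (-1.21) and higher for NPC2 (0.70), MYLIP (1.22) and ABCG1 (2.51). With shCHD4#2 the difference was below 0 for 11 members, HMGCS1 (-0.94), MVK (-0.96), MVD (-0.97), FDFT1 (-0.86), SQLE (-0.85), LSS (-0.79), HSD17B7 (-0.79), INSIG1 (-1.74), SREBF1 (-1.19), SREBF2 (-0.90) and STARD4 (-1.41). The shCHD4#2 differences did not pass with the replicate block, where 0.019 percent of all genes were called.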

How the results depend on the processing

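No call reversed its direction under any alternative that was run. DESeq2 gave ABCA1 at 48 h no adjusted p with shFLI1 or shCHD4#1, which is not counted as a lost call. The counts of members called moved by over 1.5 times as follows, with the CHD4 hairpins within the second kind left out for want of replicates. For shCHD4#1 at 24 h (4 called), 0 were called in the authors' deposited table, which called 0.671 percent of its tested genes. For shCHD4#2 at 24 h (12 called), no filter gave 7, the 2 groups alone 4, and 0 were called in the authors' deposited table. These called 5.58, 6.03 and 0.527 percent of their tested genes. For shCHD4#1 against shCHD4#2 at 24 h (2 called), a pseudocount of 5 gave 1, no filter 0, the replicate block 8, library kind as a term 11 and the replicate block without shFLI1 libraries 14. These fits called 9.87, 4.71, 16.6, 21.2 and 27 percent of their tested genes. At 48 h the authors' deposited tables called 6 with shFLI1, 1 with shCHD4#1 and 12 with shCHD4#2, against 16, 9 and 22. Those tables called 20.9, 3.24 and 5.81 percent of genes with an adjusted p, against 63.9, 28.4 and 37.9 percent in the main fit. The replicate block called 4 with shCHD4#1 at 48 h, and 23.5 percent of all genes. For the time difference of shCHD4#2 (11 called), no filter gave 5 and either replicate block 0. No filter called 0.33 percent of its tested genes, the replicate block 0.019 percent, and the block without shFLI1 libraries 0 percent. The cause of these moves was not tested.

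Leaving out 1 library at a time gave 1 to 7 calls for shCHD4#1 at 24 h (7 without shScramble replicate 2, 1 without shCHD4#1 replicate 2) and 3 to 12 for shCHD4#2 at 24 h (3 without shCHD4#2 replicate 2, and 5, 6 and 7 without shScramble replicates 3, 4 and 5). It gave 0 to 4 for the hairpins against each other at 24 h (4 without shScramble replicate 2, and 0 or 1 in 9 of 14 fits), 5 to 11 for shCHD4#1 at 48 h (5 without shCHD4#1 replicate 1) and 1 to 14 for the time difference of shCHD4#2 (1 without shCHD4#2 24 h replicate 1). For the other comparisons the ranges were 11 to 15 and 16 to 18 for shFLI1 at 24 and 48 h, 19 to 25 for shCHD4#2 at 48 h and 14 to 21 for the hairpins against each other at 48 h. The replicate block moved no other count by over 1.5 times. Median centring moved the median of all genes with shFLI1 at 48 h to -0.11, and then 9 members rose and 9 fell, where 64.7 percent of all genes were called. ABCA1 held few reads, which limits its values.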
